A study of Mus musculus with 4 samples.

Results

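The genes considered here are the core of the Nodal and bone morphogenetic protein (BMP) pathways in the mouse blastocyst, namely the ligands Nodal, Bmp2 and Bmp4, the Nodal co-receptor Tdgf1 (Cripto), the secreted inhibitors Lefty1 and Lefty2, the receptors Bmpr1a and Acvr2b, and the signal transducers Smad2 and Smad4. These 10 members were taken by their symbols from the 20714 gene symbols measured by both RNA-seq and Ribo-seq, and each of them was listed a single time per library. The libraries were 2 replicates of RNA-seq and 2 of Ribo-seq, all from wild-type, untreated blastocysts. The embryos came from C57BL/6J females, 4 weeks old and hormone-primed, that were mated with PWK/PhJ males (the strain label itself reads C57BL/6N x PWK). They were collected at the 8-cell stage, cultured in KSOM medium until they were blastocysts, and freed of the zona pellucida. There was no other stage, genotype or treatment, so the comparisons possible are between genes and between the assays. How many embryos went into a library, and whether the replicates came from separate collections, is not given in the sources used here, so the spread between replicates may be technical.

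Nodal is a secreted ligand that is cleaved by proprotein convertases and then binds type I and type II activin receptors together with the co-receptor Cripto. The receptors phosphorylate Smad2 and Smad3, which join Smad4 and act on DNA with partners such as Foxh1, while the Lefty proteins antagonize Nodal from outside the cell. BMP ligands act through another set of type I receptors, among them Bmpr1a, and through Smad1, Smad5 and Smad9, which also need Smad4. In the mouse embryo Nodal signalling is best known for its part in the epiblast and in forming the germ layers and the left-right axis, and BMP signalling for patterning of the epiblast and for germ cell induction.

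The mRNA level of a gene was read over its transcript, and its ribosome-protected fragments (RPF, the footprints of Ribo-seq) over its coding sequence. Both are given as FPKM, in which fragments are scaled to the length of the gene and the size of the library. Low FPKM values fell on steps that implied 5455368 and 5166523 fragments in RNA-seq replicates 1 and 2, with 68.3% and 66.3% of the values tested within 0.1 of a whole fragment, where chance gives 20%. In Ribo-seq they implied 533399 and 483872 fragments, with 86.8% and 86.7% near a whole fragment. Footprint numbers below rest on these totals, intervals and floors cover counting error only, and those of RNA-seq are less certain. The replicates had a Spearman correlation of 0.924 across 25039 genes for mRNA and 0.898 across 20756 for RPF. The markers of all lineages of the blastocyst were found, with 8 of 8 trophectoderm and 6 of 6 epiblast markers above 0 in every library. Of 6 primitive endoderm markers, 6 and 5 were above 0 in Ribo-seq replicates 1 and 2 and 5 and 3 in RNA-seq, and Foxa2 was listed at 0 for mRNA in both. Of 7 markers of cumulus or granulosa cells, Foxl2, Fshr, Cyp19a1 and Inha were listed at 0 throughout. Cyp11a1 had 12.6 and 2.71 FPKM of mRNA and 16.3 and 25.4 FPKM of RPF. Amhr2 was above 0 in every library, at 1.77 and 1.43 FPKM of mRNA and 1.24 and 2.74 FPKM of RPF. Hsd17b1 had 0.335 FPKM of mRNA and 2.48 FPKM of RPF in replicate 2 of each assay, and 0 in replicate 1. Hba-a1 was the only blood marker of 3 above 0, at 1.62 and 0.729 FPKM of mRNA, and Prm2 the only sperm marker of 3, at 33.7 FPKM in Ribo-seq replicate 2 alone.

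Nodal, on chromosome 10 from 60880720 to 60888086 (NCBIM37, the assembly of mm9, as are all coordinates here), was listed at 0 in all 4 libraries. A count of 0 allows up to 3 fragments, which for Nodal were 0.290 and 0.306 FPKM of mRNA, and 6.503 and 7.17 FPKM of RPF, in replicates 1 and 2. Its RPF was therefore not detectable at this depth, and the mRNA limit was the tighter of both. None of the 1038 windows of 28 bases in its coding sequence occurs elsewhere in the genome.

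The BMP ligands of the set were close to the detection limit. Bmp4 (chromosome 14, 47003195 to 47010344) had 0.736 FPKM of mRNA in RNA-seq replicate 1 against 0 in replicate 2. The value of replicate 1 was 7.48 fragments, above the floor of 3 fragments (0.295 FPKM). Its RPF stood at 0 in replicate 1 against 4.02 FPKM in replicate 2, which was 1.999 footprints, under the floor of 3. Bmp2 (chromosome 2, 133377895 to 133388621) was listed at 0 in both RNA-seq libraries and in Ribo-seq replicate 1, and had 2.10 FPKM, or 1.00 footprints, in Ribo-seq replicate 2. Neither ligand was above 0 in both replicates of an assay.

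The wider ligand family was mostly listed at 0 as well. With Nodal, Bmp2 and Bmp4 counted, 20 of 31 ligands of the family (64.5%) were listed at 0 in all 4 libraries, compared with 35.3% of all genes. A single ligand, or 3.23%, was above 0 in both Ribo-seq replicates, compared with 43.1% of all genes. This was Gdf3, a ligand related to Nodal that also acts through Cripto, with 10.7 and 6.31 FPKM of mRNA and 41.6 and 22.9 FPKM of RPF, or 20.0 and 10.0 footprints. Next by mean RPF in the Nodal, activin and TGF-beta list was Gdf11, at 0 and 4.06 FPKM. Among the 16 other BMP and GDF ligands, 12 were listed at 0 throughout, and the highest mean RPF was that of Gdf15, at 2.64 FPKM in replicate 1 and 0 in replicate 2, followed by Bmp6, at 0.468 and 0 FPKM.

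**Figure D1:**
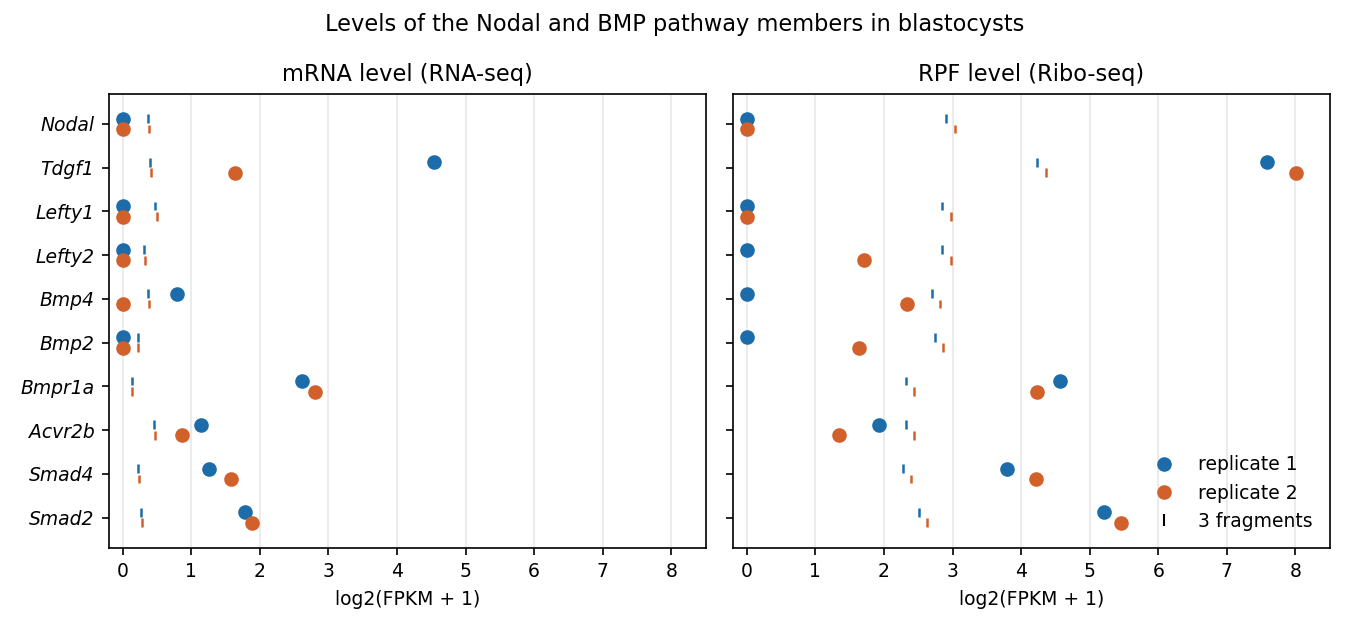
Levels of the 10 members as log2(FPKM + 1), mRNA on the left and RPF on the right, with a point per replicate and a tick at the level of 3 fragments. Nodal and Lefty1 lie at 0 in both panels, whereas Tdgf1, Smad2, Bmpr1a and Smad4 lie above their ticks in all 4 libraries.

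The Lefty genes, whose products block Nodal and Cripto, are neighbours on chromosome 1. Lefty1 (182865153 to 182868531) had no signal in any of the 4 libraries, where 3 fragments were 0.387 and 0.409 FPKM of mRNA, or 6.20 and 6.84 FPKM of RPF. Lefty2 (182823239 to 182829234) was listed at 0 in 3 libraries and had 2.28 FPKM of RPF, or 1.00 footprints, in Ribo-seq replicate 2. This footprint cannot be placed with certainty, since the genes are near copies. Their coding sequences of 1107 bases differ at 90 positions (91.9% identity), and 39.1% of the 28-base windows of each occur at the other gene.

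Of 13 secreted inhibitors, with Lefty1 and Lefty2 counted, 6 (46.2%) were listed at 0 in all 4 libraries, compared with 35.3% of all genes, and Twsg1, a BMP-binding protein, was the only one above 0 in both Ribo-seq replicates, at 4.02 and 17.7 FPKM (1.00 and 4.02 footprints). Dand5, which binds Nodal, had 1.76 and 2.41 FPKM of mRNA. Its RPF was listed at 0 in both replicates, which allows up to 3 fragments, so its translation could not be judged. The Nodal, activin and BMP antagonists Nog, Chrd, Fst and Cer1 were listed at 0 throughout. The follistatin relative Fstl3 had 5.10 and 2.42 FPKM of mRNA and a single footprint (3.29 FPKM) in replicate 1.

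Tdgf1, in contrast, had the highest mean level of the members in both assays, although in RNA-seq replicate 2 its mRNA was below that of Bmpr1a and Smad2. The RPF level of this co-receptor was 191.6 and 257 FPKM, or 32.3 and 39.3 footprints (224 ± 46.5 FPKM, SD, n = 2), and was above that of 95.01% of genes. Its mRNA level was 22.2 FPKM in RNA-seq replicate 1 and 2.12 FPKM in replicate 2 (12.1 ± 14.2, SD, n = 2). The Ribo-seq replicates were thus close to each other, and the RNA-seq replicates lay 10.5-fold apart. The exact Poisson intervals at the 95% level, 19.3 to 25.4 FPKM and 1.28 to 3.33 FPKM, did not overlap. On the log2(FPKM+1) scale the mRNA difference was 2.89, and 36 of 9101 genes with a mean mRNA of at least 1 FPKM (0.396%) were as far apart or farther. As listed, the RPF of Tdgf1 was 29.5 and 35.9 times the floor of Nodal in the same library, and its mRNA 76.4 and 6.91 times. These ratios leave out the counting error of Tdgf1, whose 95% intervals for RPF began at 130 and 181 FPKM. The short coding sequence of Tdgf1 also raised its RPF in FPKM, so the ratios are not lower bounds.

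Epiblast markers also differed between the RNA-seq replicates. All 6 of them had more mRNA in replicate 1, with a summed level of 145 and 58.5 FPKM (2.48-fold). Pou5f1 had 70.1 and 28.6 FPKM of mRNA, Nanog 69.8 and 28.1 FPKM, and Klf2 3.27 and 0.357 FPKM. Sox2 (0.889 and 0.682 FPKM), Fgf4 (0.519 and 0.342 FPKM) and Prdm14 (0.536 and 0.485 FPKM) were 1.30-, 1.52- and 1.11-fold apart. On the log2(FPKM+1) scale each difference was under the median distance between replicates of 0.287. That median covers the 9101 genes with a mean mRNA of at least 1 FPKM. Sox2, Fgf4 and Prdm14 were not among them, and the scale shrinks differences at levels under 1 FPKM. The summed mRNA level of the 6 primitive endoderm markers was 160.5 and 119 FPKM, higher in replicate 1 for 5 of them. Most of it was Dab2 (148 and 110 FPKM), while Gata4 and Sox17 were above 0 in replicate 1 only, at 0.0574 and 0.204 FPKM. The summed mRNA level of the 8 trophectoderm markers was 3052 and 2821 FPKM, higher in replicate 1 for 5 of them. Most of this sum was Krt8 (1078 and 838 FPKM) and Krt18 (1757 and 1754 FPKM). Eomes (15.5 and 32.4 FPKM), Gata2 (16.4 and 24.6 FPKM) and Tead4 (12.4 and 17.7 FPKM) were higher in replicate 2. In Ribo-seq, the summed RPF level of the epiblast markers was 732 and 852 FPKM, with 3 of 6 higher in replicate 1. In whole blastocysts, fewer cells of a type and less RNA per cell cannot be told apart, and the part of these markers in the Tdgf1 values was not tested.

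**Figure D2:**
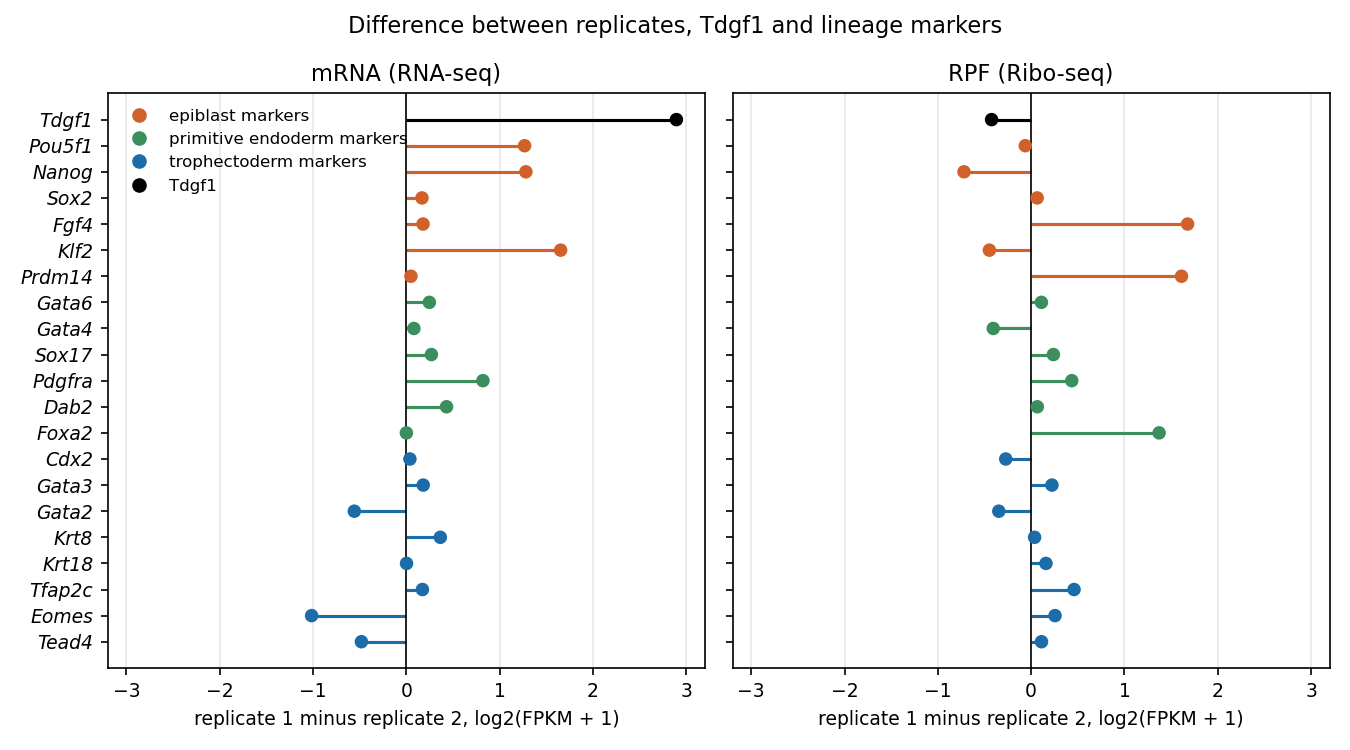
Replicate 1 minus replicate 2 on the log2(FPKM + 1) scale for Tdgf1 and the markers of the blastocyst lineages, mRNA on the left and RPF on the right. For mRNA, Tdgf1 reaches 2.89 and all 6 epiblast markers lie above 0, whereas for RPF Tdgf1 lies at -0.42 and 3 of 6 epiblast markers lie above 0.

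The Tdgf1 signal can also not be assigned with certainty to a single place in the genome. The gene lies on the minus strand of chromosome 9 (110842114 to 110848662), and its coding sequence of 516 bases has a near-identical copy without introns on chromosome 16, from 3730510 to 3731025. The copy differs at 7 of 516 bases (98.6% identity) and has 0 stop codons in frame before its last codon. GENCODE vM1 annotates no gene there, and the RefSeq gene table, on another assembly, names a pseudogene Tdgf1-ps1 on chromosome 16. Of the 489 windows of 28 bases, 345 (70.6%) occur elsewhere in the genome, all of them in this copy, with 39 also on chromosome 17 and 23 on chromosome 2. None occurs in the coding sequence of another annotated gene, and neither pseudogene name of Tdgf1 was among the symbols measured. The stretch with most of the differences, from position 364 to 513 of the coding sequence, is shown with the differing bases in capitals, because footprints could be told apart only at those 4 bases of it (GENCODE vM1 transcript and NCBIM37, the copy on the plus strand).
Tdgf1: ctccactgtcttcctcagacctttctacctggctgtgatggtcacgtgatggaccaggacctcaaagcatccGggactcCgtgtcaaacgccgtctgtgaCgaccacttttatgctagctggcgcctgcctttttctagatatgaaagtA
Copy: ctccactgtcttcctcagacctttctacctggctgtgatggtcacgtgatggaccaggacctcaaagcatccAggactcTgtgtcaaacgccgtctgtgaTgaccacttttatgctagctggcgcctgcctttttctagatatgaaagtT
Reads had been mapped to the transcriptome, and whether any of the fragments came from the copy was not tested.

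The second EGF-CFC co-receptor, Cfc1 (Cryptic), had 12.3 and 10.8 FPKM of mRNA, and its RPF was 13.8 FPKM (3.02 footprints) in replicate 1 and listed at 0 in replicate 2. Bambi, a pseudoreceptor that lacks a kinase, had 2.17 and 0.845 FPKM of mRNA and 6.45 and 17.8 FPKM of RPF. Thus Tdgf1 had more RPF than Cfc1 in both replicates, whereas the ranges of their mRNA levels overlapped. Of the convertases that can cleave Nodal outside or at the surface of the cell, Pcsk6 and Furin were present in all libraries. Pcsk6 (Pace4) had 12.6 and 13.6 FPKM of mRNA and 52.3 and 53.1 FPKM of RPF (74.8 and 68.8 footprints). Furin had 2.13 and 2.35 FPKM of mRNA and 20.6 and 17.0 FPKM of RPF. Pcsk5 was listed at 0 throughout.

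Both receptors of the set were found in all 4 libraries, at different levels. Bmpr1a, the BMP type I receptor (chromosome 14, 35223920 to 35316527), had 5.10 and 6.01 FPKM of mRNA, while its RPF reached 22.8 and 17.7 FPKM, or 17.0 and 12.0 footprints. Acvr2b, an activin type II receptor that Nodal also uses (chromosome 9, 119311562 to 119342619), had 1.21 and 0.827 FPKM of mRNA and 2.80 and 1.54 FPKM of RPF. These were 2.11 and 1.05 footprints, under the floor of 3, so the translation of Acvr2b was barely measurable. In both assays Bmpr1a was above Acvr2b in every replicate.

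Of 12 receptors of the family, members included, 7 (58.3%) were above 0 in both Ribo-seq replicates, compared with 43.1% of all genes. Acvr1b (ALK4), the main type I receptor for Nodal, had 0.394 and 0.138 FPKM of mRNA and 22.7 and 4.70 FPKM of RPF, or 15.98 and 2.996 footprints. Acvr2a, the paralog of Acvr2b, had 2.44 and 2.79 FPKM of mRNA and 14.0 and 4.61 FPKM of RPF, above Acvr2b in each replicate of each assay. The BMP type II receptor Bmpr2 had 0.595 and 1.17 FPKM of mRNA and 5.13 and 4.24 FPKM of RPF, and Tgfbr1 had 8.82 and 14.3 FPKM of RPF. Bmpr1b and Tgfbr2 were listed at 0 in all 4 libraries, and Acvr1 had 0.0712 FPKM of mRNA in replicate 1 alone.

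The Smads of the set were found in all libraries. Smad2, which carries the Nodal and activin signal (chromosome 18, 76401234 to 76465385), had 2.45 and 2.68 FPKM of mRNA, while its RPF reached 35.8 and 42.9 FPKM, or 23.0 and 25.0 footprints. Smad4, the partner shared by both branches (chromosome 18, 73798663 to 73863434), had 1.39 and 2.0 FPKM of mRNA and 12.9 and 17.6 FPKM of RPF, or 9.99 and 12.4 footprints. The RPF of Smad2 exceeded that of Smad4 by more than the spread between replicates (39.3 ± 5.00 against 15.2 ± 3.36 FPKM, SD, n = 2 each). The exact Poisson intervals at the 95% level overlapped slightly, at 22.7 to 53.7 against 6.17 to 23.7 FPKM in replicate 1. In replicate 2 they were 27.8 to 63.4 against 8.80 to 29.8 FPKM.

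None of the 4 other receptor-regulated Smads was above 0 in both Ribo-seq replicates. Smad3, the close relative of Smad2, had 0.0755 and 0.398 FPKM of mRNA and was listed at 0 for RPF in both. The BMP-branch Smads were likewise sparse, with Smad5 at 0.926 and 0.458 FPKM of mRNA and at 0 and 10.3 FPKM of RPF (0 and 5.99 footprints), and Smad1 at 0 and 3.45 FPKM of RPF. Among the inhibitory Smads and ubiquitin ligases, Trim33 had the highest mean RPF, with 19.5 and 15.6 FPKM, followed by Smurf1 with 9.37 and 7.26 FPKM. Smad7, an inhibitory Smad, had 1.83 and 2.98 FPKM of mRNA and RPF of 9.55 FPKM in replicate 2 alone.

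**Figure D3:**
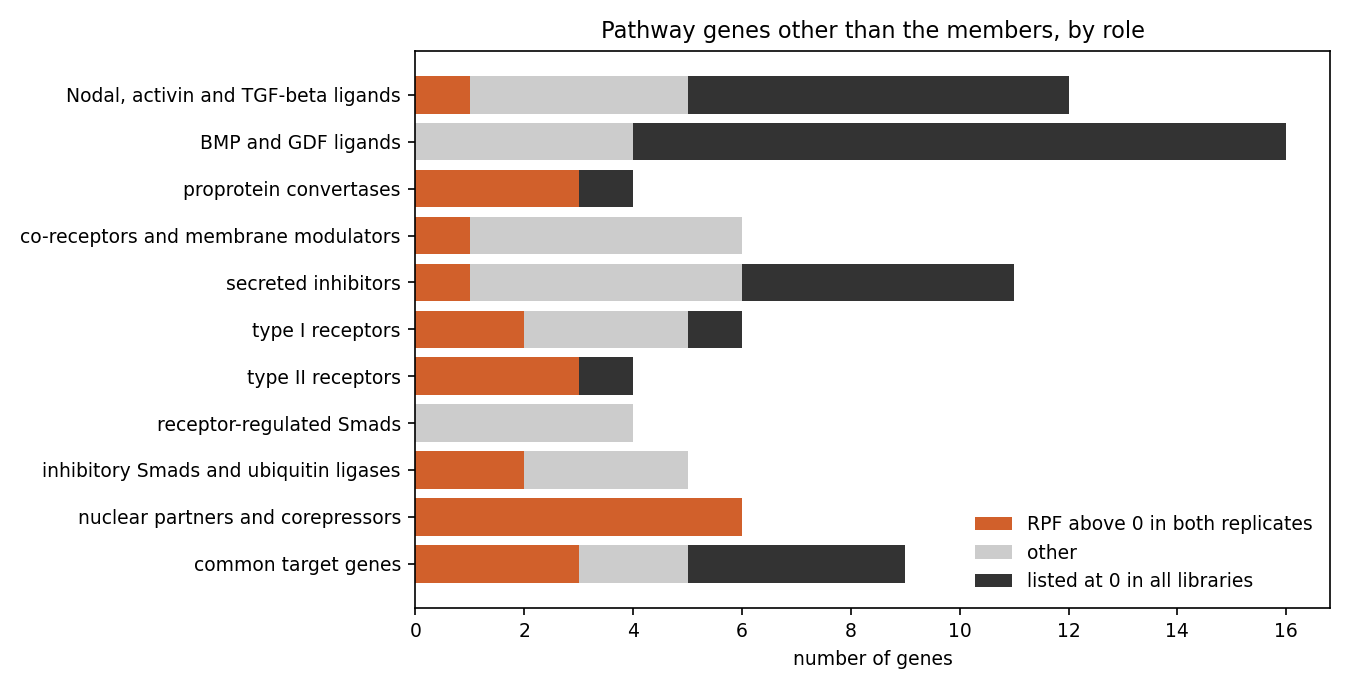
Number of the 83 other pathway genes in each role that were above 0 in both Ribo-seq replicates, listed at 0 in all 4 libraries, or neither. Ligands are mostly listed at 0 (7 of 12 and 12 of 16), compared with 35.3% of all genes. All 6 nuclear partners and corepressors had RPF above 0 in both replicates, compared with 43.1% of all genes.

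Downstream, all 6 nuclear partners and corepressors had RPF above 0 in both replicates, compared with 43.1% of all genes. Of these, Tgif2 had 9.50 and 5.24 FPKM of RPF, which were 2.61 and 1.30 footprints, under the floor of 3. Foxh1, the DNA-binding partner of Smad2, had 3.10 and 3.93 FPKM of mRNA and 27.96 and 34.9 FPKM of RPF (15.0 and 17.0 footprints). Eomes, a T-box factor that is also a trophectoderm marker, had the highest mean RPF of this list with 96.2 and 80.4 FPKM, followed by the corepressor Tgif1 with 60.6 and 73.6 FPKM. Of 9 common target genes, Id2 stood highest with 763 and 695 FPKM of mRNA and 2731 and 2600 FPKM of RPF. Id3 followed with 13.5 and 17.0 FPKM of mRNA and 35.8 and 92.0 FPKM of RPF, but the latter were only 3.06 and 7.14 footprints. Id genes are known targets of BMP signalling, but they are also expressed under other inputs. Msx2, on the same list, had 4.56 and 4.52 FPKM of mRNA and 24.9 and 17.2 FPKM of RPF (8.02 and 5.01 footprints). Id4, T and Fgf8 were listed at 0 throughout. Id1 was at 1.02 FPKM of mRNA in replicate 2 and at 0 in the other 3 libraries.

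Ordered by mean RPF, the members ran from Tdgf1 through Smad2, Bmpr1a, Smad4 and Acvr2b to Bmp4, Lefty2 and Bmp2, with Nodal and Lefty1 at 0. The ranges of the 2 replicates did not overlap between neighbours from Tdgf1 down to Acvr2b, and overlapped between all neighbours below that. The gap between Bmpr1a and Smad4 was narrow (a lowest value of 17.7 against a highest of 17.6 FPKM), and at 12.0 and 12.4 footprints it lay within counting error. By mRNA the order was Tdgf1, Bmpr1a, Smad2, Smad4, Acvr2b and Bmp4. The range of Tdgf1 overlapped those of Bmpr1a and Smad2, because of its low second replicate, and lay above that of Smad4. With FPKM rescaled to the full coding length, Tdgf1 had 117 and 157.5 and Smad2 30.7 and 36.8 FPKM of RPF, so that Tdgf1 stayed highest. An exact permutation test of 2 against 2 libraries cannot go below p = 0.333, so no test was made of these levels.

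RPF was then compared with mRNA gene by gene, to ask which pathway genes carried more footprints for their mRNA than genes do in general. The test was that of limma on log2(FPKM+1) for the 8327 genes with a mean of at least 1 FPKM in both assays, and the median difference of 1.26 (RPF minus mRNA) was removed. Of the 10 members, 5 passed this filter, and Nodal, Lefty1, Lefty2, Bmp4 and Bmp2 did not. Of these 5, Smad2 alone was past the threshold, set at 0.05 for the adjusted p together with a centred log2 difference of 1 or more, with RPF above mRNA. In all genes tested, 9.13% were called with RPF above mRNA and 3.24% with RPF below it, and of the 1030 genes called 760 had RPF above mRNA, against 656 of 1141 with quantile normalization.

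The RPF of Smad2 was 2.24 ± 0.25 (SE) above its mRNA on the log2 scale after centring, or 4.71-fold (limma, Benjamini-Hochberg adjusted p = 0.0240, n = 2 per assay), and 95.5% of the genes tested had a lower difference. The call was lost with the replicate number as a block (adjusted p = 0.0876) and without RNA-seq replicate 1 or 2 (adjusted p = 0.290 and 0.306), with differences of 2.24, 2.21 and 2.28. Smad4 had a difference of 1.32 ± 0.30 (limma, adjusted p = 0.0649), which did not pass. It passed without Ribo-seq replicate 1 (1.45, adjusted p = 0.0237) and without a filter on low values (1.75, adjusted p = 0.0335).

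The largest difference among the members tested was that of Tdgf1, at 3.45 ± 1.05 (limma, adjusted p = 0.106), with a 95% interval of 0.54 to 6.37. It did not pass, and its size depended on the RNA-seq replicate, being 4.92 without replicate 1 and 2.001 without replicate 2. Bmpr1a had a difference of 0.43 ± 0.27 (limma, adjusted p = 0.327). Acvr2b had -0.63 ± 0.32 (limma, adjusted p = 0.244), and its sign turned with quantile normalization (0.69), so no direction is given for it.

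Of the 83 other pathway genes in both assays, 22 were tested and 2 were past the threshold, both with RPF above mRNA, a share close to the 9.13% of all genes. These were Foxh1, with a difference of 1.58 ± 0.27 (limma, adjusted p = 0.0433), and Furin, with 1.34 ± 0.25 (limma, adjusted p = 0.0484). Both calls were lost with a pseudocount of 0.1 (adjusted p = 0.0585 and 0.0565), with the replicate block (0.104 and 0.116) and without either RNA-seq replicate (0.309 to 0.323 over both genes), and that of Furin was also lost with a trend in limma (0.0561). The differences themselves stayed between 1.47 and 1.73 for Foxh1 and between 1.32 and 1.61 for Furin under these settings. The other 20 genes ranged from -2.96 for Cfc1 to 1.31 for Trim33. Gdf3, the ligand with footprints, had 0.53 ± 0.44 (limma, adjusted p = 0.442), and Id2 had 0.61 ± 0.24 (limma, adjusted p = 0.161).

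**Figure D4:**
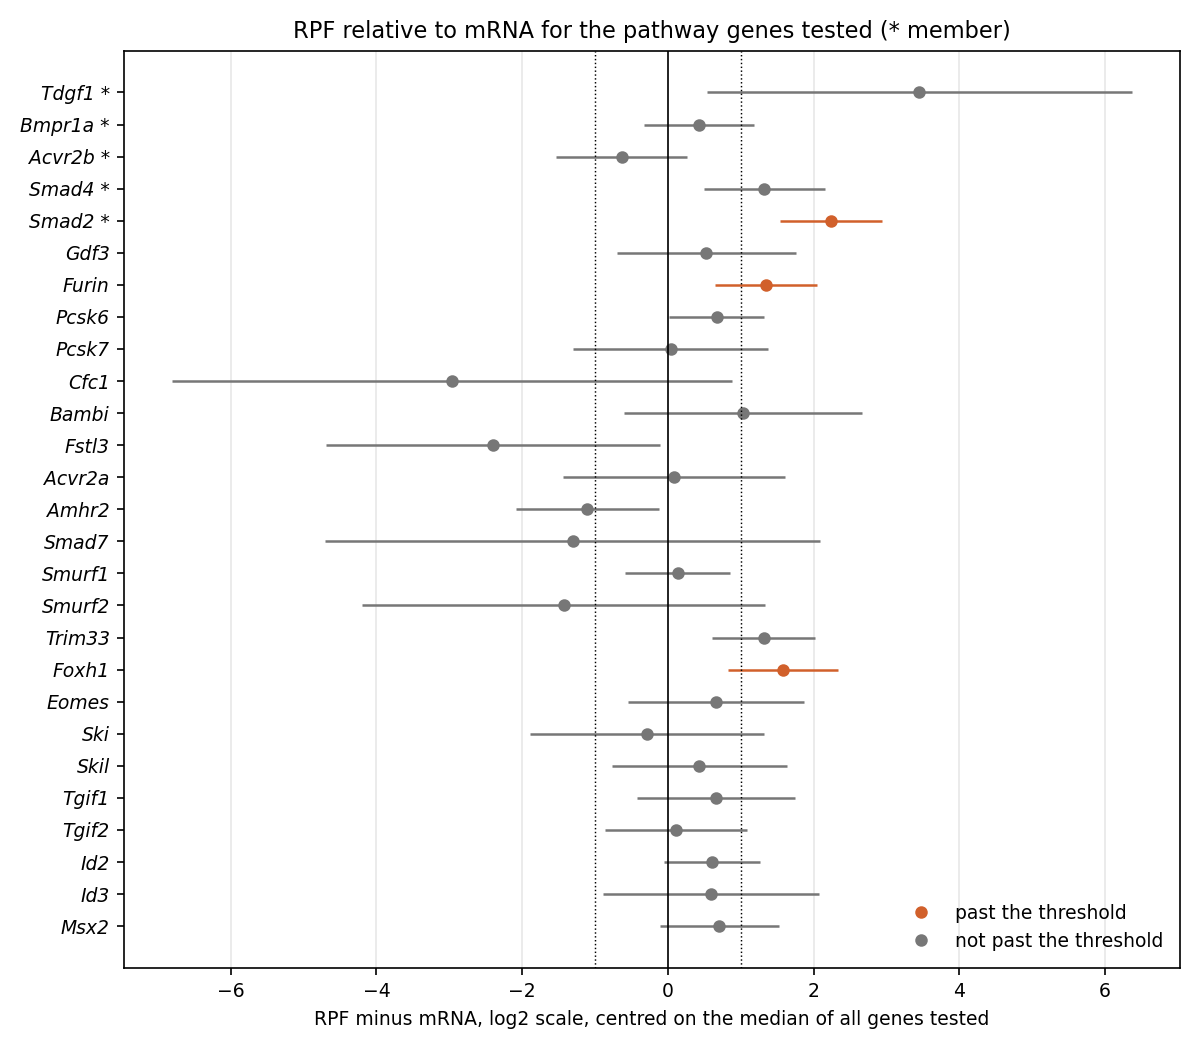
RPF minus mRNA on the log2 scale with 95% intervals from limma for the 5 members and 22 other pathway genes tested, centred on the median of 8327 genes. Smad2 (2.24), Foxh1 (1.58) and Furin (1.34) are past the threshold, and the dotted lines mark a difference of 1 in each direction.

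Across the 4 libraries, the pathway gene most like each member was found by the distance of log2(FPKM+1) values, as a description without a test. The values of Smad2 lay closest to those of Foxh1 (distance 0.67), those of Smad4 to Trim33 (0.71), and those of Bmpr1a to the homeobox gene Msx2 (0.39). Acvr2b lay closest to Amhr2 (1.08), a type II receptor for anti-Mullerian hormone that is also on the list of cumulus or granulosa markers. Tdgf1 had no near neighbour, with Tgif1 the closest at 3.21. Bmp4 and Lefty2 lay closest to Smad1 (0.63 and 0.58), Bmp2 lay closest to Bmper (0.55), and Nodal and Lefty1 were at a distance of 0 from the 31 other pathway genes listed at 0 throughout.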

How the data were processed

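The authors deposited FPKM values per gene for each of the 4 blastocyst libraries. Per the labels and the study's methods, Smart-seq2 RNA-seq reads were trimmed with Trim Galore 0.4.2, and Ribo-seq reads with cutadapt 1.14 and cleared of rRNA with Bowtie2 2.2.2. Reads were mapped to the mm9 transcriptome with STAR 2.5.3a, with up to 20 places per read, and Cufflinks 2.2.1 counted them over transcripts or, for Ribo-seq, coding sequences. Reads with several places can therefore be shared between near copies.

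Groups were taken from the sample titles. Symbols listed more than once took the highest value. RPF minus mRNA was fitted with limma 3.58.1 (R 4.3.3) on log2(FPKM+1), with Benjamini-Hochberg adjustment over 8327 genes. A fold change on this scale understates that of low genes. Footprints and fragments were FPKM divided by the value of 1 fragment, from the implied totals and the effective length Cufflinks uses by default (fragments of 200 ± 80 bases), on the longest coding transcript of GENCODE vM1 (NCBIM37). Of several totals with near-equal scores, the smallest was taken. This effective length raises the FPKM of short coding sequences. The other steps were run in Python 3.11.15 with pandas 2.3.3, numpy 2.4.6, numba 0.67.0 and scipy 1.17.1. Depth, window counts and the fit were tested on simulated data.

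The members, gene lists and markers were chosen with earlier results of these data known. Named genes were all members, and in each list the genes past the threshold, the 2 with the highest mean RPF, and the nearest to each member. Others (Dand5, Nog, Chrd, Fst, Cer1, Pcsk5, Bmpr1b, Tgfbr2, Acvr1, Smad3, Smad7, Tgif2, Id4, T, Fgf8 and Id1) were named after their values were seen. Hfe2 was not in the files under that symbol. No protein values, nor other stages, were analysed here. One further target gene of the lists and one further sequence comparison are not reported here.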

Additional observations from a re-analysis of the deposited data

How the results depend on the processing

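With 2 replicates an assay, counts of genes past the threshold depended on the processing. Over all genes, 1030 were called, with 543 at a pseudocount of 0.1, 3133 without a filter on low values, 1611 with a trend in limma, 28 with the replicate block, and 0 to 2646 with a replicate left out (0 without either RNA-seq replicate, with 1317 and 1260 at an unadjusted p under 0.05 in limma, and 2646 and 2602 without Ribo-seq replicate 1 or 2). The single call among the members became 2 without a filter, and 0 with a filter of 5 FPKM (Smad2 was then not tested, and 1 of 2 had an unadjusted p under 0.05 in limma). It became 0 with the replicate block (3 of 5 unadjusted) and ranged from 0 to 2 with a replicate left out. The 2 calls among other pathway genes became 0 with a pseudocount of 0.1 (3 of 22 unadjusted), 13 without a filter, 0 with a filter of 5 FPKM (1 of 7), 1 with a trend, 0 with the replicate block (4 of 22), and 0 to 6 with a replicate left out. Acvr2b turned to 0.69 with quantile normalization. A left-out replicate leaves a lone library that is assumed to vary like the other assay. The replicate numbers come from the labels, and deviations of same-numbered libraries had a correlation of 0.00994 across 8327 genes, which gave no sign of pairing, and whether same-numbered libraries share an origin is not given in the sources used here. The causes of these changes were not tested. Ribo-seq depth limits genes of a few FPKM, where 3 fragments are the floor.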
